A study of Mus musculus with 6 samples.

Results

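The dystrophin-glycoprotein complex links the cytoskeleton of a muscle fibre to the basement membrane around it, and its loss causes muscular dystrophy. Dystrophin, or utrophin in its place, binds actin under the membrane, and dystroglycan spans the membrane and binds laminin outside it. The sarcoglycans and sarcospan steady dystroglycan in the membrane, and dystrobrevin and the syntrophins attach signalling proteins to dystrophin. The genes described here are Dmd (dystrophin), Utrn (utrophin), Dag1 (dystroglycan), Sgca, Sgcb and Sgcd (alpha-, beta- and delta-sarcoglycan), Sspn (sarcospan) and Dtna (alpha-dystrobrevin). They were chosen by name and matched by gene symbol in the GENCODE M21 annotation, which found all 8 of them among the 54393 genes of the table. Other subunits of the complex are given with the partner genes.

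RNA was sequenced from tibialis anterior, a fast muscle of the lower hind limb, of adult mice. The groups were 3 WT (wild-type) muscles, titled C57, and 3 muscles of mice lacking Dock3 (Dock3 KO), a gene that encodes an activator of the small GTPase Rac. The knockout allele, the sex of the mice and whether the 3 muscles of a group came from 3 animals are not given in the sources used here, so p-values measure the spread between these samples. The study's title places Dock3 beside dystrophin deficiency, but both groups measured here carried no label of a dystrophin mutation. Values are normalized counts per gene as the authors deposited them, and in bulk muscle fewer cells of a type and less RNA per cell cannot be told apart.

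Dock3 was listed at 118 to 169 normalized counts in WT, at 22.4 in Dock3 KO replicate 1 and at 1.78 and 1.54 in replicates 2 and 3. All knockout samples lay below all WT samples, and replicate 1 kept a higher level than the other knockout samples. Sums of normalized counts lay between 23520223 and 33393950 per sample, and the depth in reads was not recovered. Dock3 KO replicates 1 and 2 stood apart, with 17.9% and 20.3% of their sum in the 2 genes Gm42418 and Lars2, against 3.00% to 3.64% in the other samples. Muscle fibre markers (Acta1, Ckm, Mb, Ttn, Neb, Myh4 and Tnnt3) were abundant in every sample, as the tissue label states. Their summed level ranged from 1591656 to 2055246 in WT and from 1703407 to 2152488 in Dock3 KO.

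None of the 8 genes passed the test between genotypes. The threshold was an adjusted p of 0.05 from limma, with Benjamini-Hochberg adjustment. It was passed by 165 of 16031 genes tested (1.03%), 71 of them higher in Dock3 KO (0.443%) and 94 lower (0.586%), and by 0 of the 8 complex genes. That split moved with the scaling, to 41 higher of 177 when every sample was rescaled to the same total and to 52 of 163 when that total left out Gm42418 and Lars2. At an unadjusted p under 0.05, the count was also 0 of 8, against 10.5% of all genes. The log2 difference, Dock3 KO minus WT on log2(normalized count + 1), was below 0 for 6 of the 8 and above 0 for Utrn and Dag1, against 51% below 0 among all genes. The median of the 8 was -0.11, with a range from -0.28 to 0.25, and the median of all genes was -0.01. The groups did not overlap for 1 of the 8, Sspn, against 16.2% of all genes tested. With Dock3 KO replicates 1 and 2, the samples high in Gm42418 and Lars2, both left out, the differences were -0.17 for Dmd, 0.46 for Utrn, 0.10 for Dag1, -0.33 for Sgca, -0.18 for Sgcb, -0.30 for Sgcd, -0.13 for Sspn and -0.23 for Dtna. These differences rest on the lone knockout sample left, Dock3 KO replicate 3, whose spread cannot be measured. A miss of the threshold does not show equal levels, so each gene is given with its 95% interval.

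**Figure D1:**
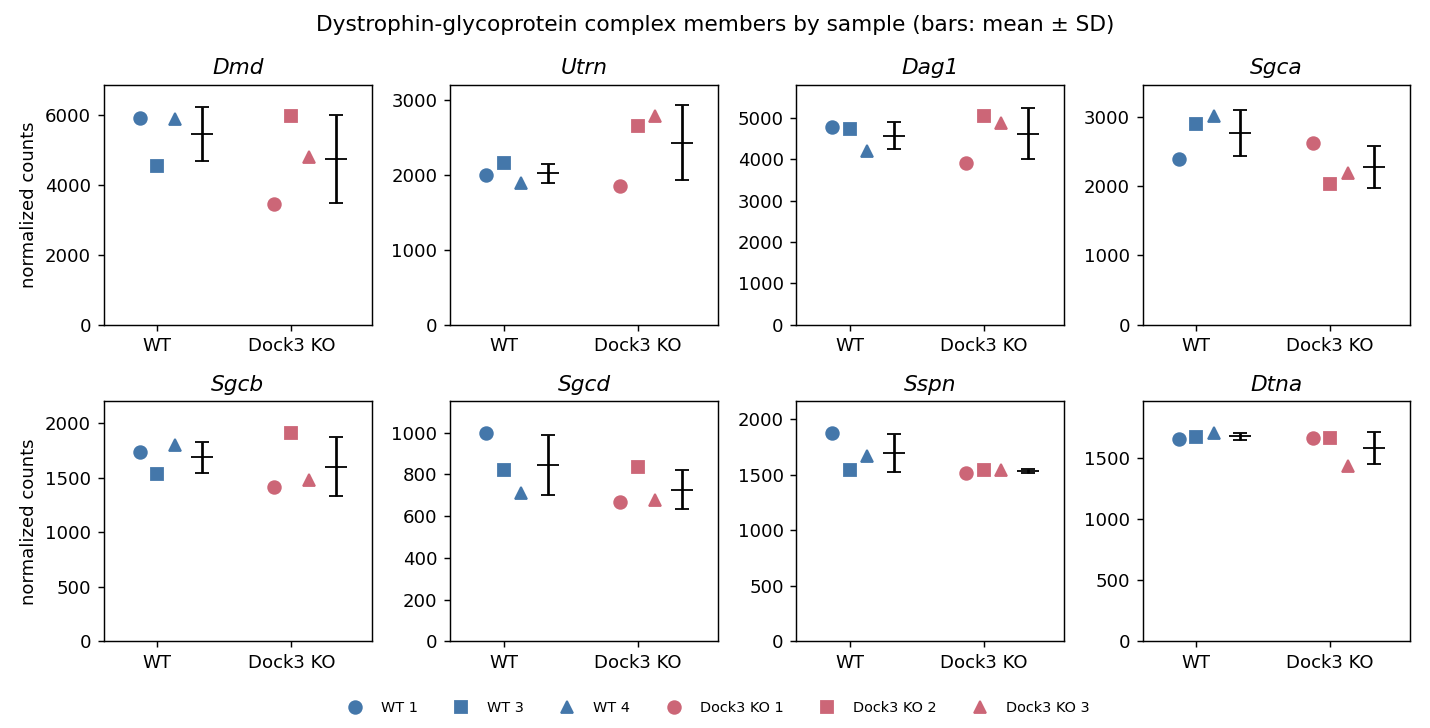
Normalized counts (vertical axes, from 0) of the 8 complex genes in 3 WT samples (blue) and 3 Dock3 KO samples (red), with mean ± SD as black bars. The groups overlap in every panel except Sspn, where the highest Dock3 KO value (1544) lies just under the lowest WT value (1546).

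Dmd encodes dystrophin, the large cytoskeletal protein missing in Duchenne muscular dystrophy. The gene lies on the plus strand of chromosome X, from 82948870 to 85206141 (GRCm38), and its longest coding transcript has 79 exons. Replicates 1, 3 and 4 of WT had 5913, 4557 and 5905 normalized counts, and replicates 1, 2 and 3 of Dock3 KO had 3449, 5975 and 4817, the order used for every gene below. The highest and the lowest of the 6 values both belonged to Dock3 KO, so the groups overlapped. The means were 5458 ± 781 (WT) and 4747 ± 1265 (Dock3 KO; SD, n = 3 each). In log2 terms the difference was -0.23 ± 0.20 (standard error), at a limma adjusted p of 0.771, and the fold of 0.855 had a 95% interval from 0.628 to 1.16. The difference was -0.014 without Dock3 KO replicate 1, -0.41 without Dock3 KO replicate 2 and -0.35 without WT replicate 3. The table gives 1 value per gene, so the full-length and the short dystrophin transcripts were not separated.

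Utrn encodes utrophin, the autosomal relative of dystrophin that sits at the neuromuscular junction in adult fibres and can stand in for dystrophin. It lies on the minus strand of chromosome 10 (12382188 to 12869365). WT held 1998, 2155 and 1894 normalized counts, with 1853, 2646 and 2778 in Dock3 KO. Dock3 KO replicates 2 and 3 lay above the WT range, and replicate 1 lay below it. The means were 2016 ± 132 (WT) and 2425 ± 500.3 (Dock3 KO; SD, n = 3 each). The genotypes differed by a log2 value of 0.25 ± 0.16 (standard error), at a limma adjusted p of 0.680, and the fold of 1.19 had a 95% interval from 0.920 to 1.53. It was 0.43 without Dock3 KO replicate 1, 0.14 without replicate 3 and -0.029 when every sample was rescaled to the same total, a scaling that also moved the median of all genes to -0.28.

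Dmd and Utrn arose from a common ancestral gene, so the words their transcripts share bear on whether a read can be assigned to the right one. Of the 31-base words in the longest coding transcript of each gene, 0.229% of those of Dmd and 0% of those of Utrn occurred in transcripts of any other gene. The longest identical run between the coding sequences of these transcripts was 25 bases. It lies in exon 67 of Dmd (chrX:85110039-85110087, plus strand, GRCm38, with 12 bases on each side) and in exon 62 of Utrn (chr10:12441949-12441997, minus strand). Both stretches are shown 5′ to 3′ because they hold this longest identical run, given in capitals.
Dmd: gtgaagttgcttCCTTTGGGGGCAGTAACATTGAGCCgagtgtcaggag
Utrn: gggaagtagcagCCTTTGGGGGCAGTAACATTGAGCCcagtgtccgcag

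Dag1 encodes the precursor of alpha- and beta-dystroglycan, the laminin receptor at the centre of the complex. It lies on the minus strand of chromosome 9 (108204634 to 108263958), and shared no 31-base word with another gene. The WT values were 4777, 4726 and 4193, against 3904, 5041 and 4887 in the knockout. The lowest and the highest value again belonged to Dock3 KO replicates 1 and 2, with the WT values between them. The log2 difference was 0.0077 ± 0.14 (standard error), at a limma adjusted p of 0.995, and the fold of 1.01 had a 95% interval from 0.813 to 1.24. The sign of this difference turned under 8 of 21 alternative settings.

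The sarcoglycans are single-pass membrane proteins that form a tight subcomplex, and loss of any of the muscle forms causes a limb-girdle dystrophy. Sgca (chromosome 11, minus strand, 94962791 to 94976327) had 2397, 2899 and 3011 in WT, against 2621, 2028 and 2187 in the knockout. Dock3 KO replicates 2 and 3 lay below the WT range and replicate 1 within it. The log2 difference of -0.28 ± 0.15 (standard error) was the largest of the 8 in size (limma adjusted p 0.551). The fold of 0.822 had a 95% interval from 0.657 to 1.03. Rescaling every sample to the same total gave -0.56, and that scaling also moved the median of all genes to -0.28.

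Sgcb (chromosome 5, minus strand, 73632749 to 73647790) had 1730, 1529 and 1798 in WT, against 1412, 1911 and 1479 in the knockout. Its order over the samples resembled that of Dmd, with Dock3 KO replicate 2 highest and replicate 1 lowest for both genes. On the log2 scale the difference was -0.08 ± 0.15 (standard error), at a limma adjusted p of 0.913. The size rested on single samples: it was -0.00025, -0.22 and -0.034 without Dock3 KO replicates 1, 2 or 3, and -0.15 and -0.036 without WT replicates 3 or 4. The fold of 0.943 had a 95% interval from 0.750 to 1.19.

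Sgcd (chromosome 11, minus strand, 46896253 to 47988969) had 999, 822 and 712 in WT, against 666, 835 and 678 in the knockout. Dock3 KO replicates 1 and 3 lay below all WT values, and replicate 2 lay within the WT range. The log2 difference came to -0.21 ± 0.16 (standard error), at a limma adjusted p of 0.741, and the fold of 0.864 had a 95% interval from 0.670 to 1.11. It was -0.08 without WT replicate 1 and -0.33 without WT replicate 4.

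Sgce encodes epsilon-sarcoglycan, a relative of alpha-sarcoglycan found in many tissues. Its WT values ran from 209 to 255 and its Dock3 KO values from 175 to 275 (log2 difference -0.05, limma adjusted p 0.969). Sgcz, zeta-sarcoglycan, stood at under 2 normalized counts in every sample and was not tested.

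Sspn encodes sarcospan, a small membrane protein with several membrane-spanning segments. It lies on the plus strand of chromosome 6, from 145931641 to 145965223, and shared 0.946% of its words with other genes, all of them with its antisense neighbour Sspnos. WT held 1877, 1546 and 1664 normalized counts, with 1515, 1544 and 1541 in Dock3 KO. All Dock3 KO values were below all WT values, by a margin of under 3 normalized counts at the nearest pair. The coefficient of variation was 9.89% in WT and 1.04% in Dock3 KO. The genotypes differed by a log2 value of -0.14 ± 0.12 (standard error), at a limma adjusted p of 0.770, and the fold of 0.907 had a 95% interval from 0.750 to 1.10. It was -0.07 without WT replicate 1, the highest sample.

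Dtna encodes alpha-dystrobrevin, a dystrophin relative that binds dystrophin and the syntrophins. It lies on the plus strand of chromosome 18, from 23415135 to 23659715. The WT values were 1652, 1668 and 1705, against 1660, 1658 and 1432 in the knockout. Only Dock3 KO replicate 3 stood outside the WT range, and WT varied by 1.62% (coefficient of variation). On the log2 scale the difference was -0.08 ± 0.12 (standard error), at a limma adjusted p of 0.881, the fold of 0.943 had a 95% interval from 0.783 to 1.14, and the difference was -0.01 without Dock3 KO replicate 3. Its paralogue Dtnb, beta-dystrobrevin, ran from 73.7 to 107 in WT, against 93.6 to 122 in the knockout (log2 difference 0.38, limma adjusted p 0.661).

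**Figure D2:**
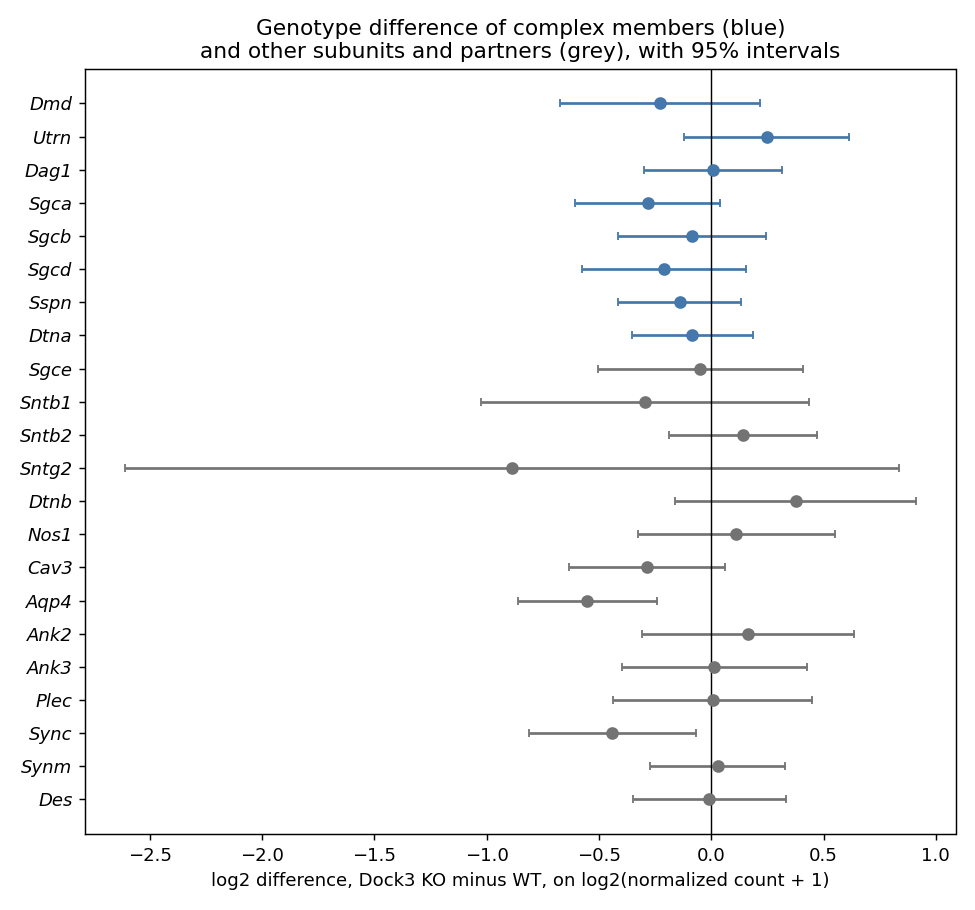
Log2 difference between genotypes (horizontal axis, Dock3 KO minus WT) with its 95% interval from limma for the 8 complex genes (blue) and 14 other subunits and partners (grey). The intervals of all 8 complex genes contain 0, and those of Aqp4 and Sync lie below it without an adjusted p under 0.05.

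Members were compared with each other as normalized counts per kilobase of the longest coding transcript, so that long genes such as Dmd are not overstated. In WT the order of these levels was Sgca at 1606 ± 190, Dag1 at 806 ± 57.2, Sgcb at 445 ± 36.9, Sspn at 376 ± 37.2, Dmd at 366 ± 52.4, Sgcd at 345 ± 59.2, Dtna at 266 ± 4.31 and Utrn at 163 ± 10.6 (SD, n = 3 each). Sspn, Dmd and Sgcd overlapped one another between samples, and Sgcb overlapped Sspn and Sgcd, so their ranges did not separate them. Within every sample of both genotypes, Sgcb lay above Sspn, Dmd and Sgcd, and Sspn lay above Sgcd. The place of Dmd relative to Sspn and Sgcd varied between samples. Sgca and Dag1 were separate from their neighbours, as were Dtna and Utrn. The order of the means was the same in Dock3 KO, where Sgca stood at 1322 ± 178 and Utrn at 196 ± 40.4 (SD, n = 3 each). There, Sspn, Dmd and Sgcd overlapped one another, and Dmd also overlapped Sgcb and Dtna. A level per kilobase depends on which transcript is in use, and the use of shorter transcripts would raise it for the true length.

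**Figure D3:**
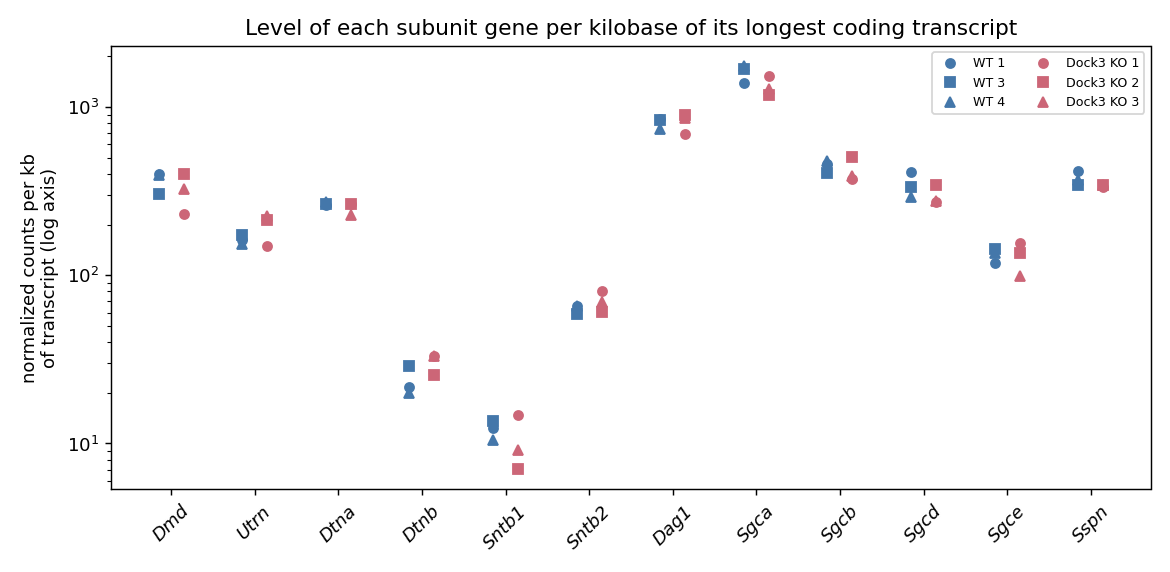
Normalized counts per kilobase of the longest coding transcript (vertical log axis) for complex subunit genes in 3 WT (blue) and 3 Dock3 KO (red) samples, 1 point per sample. Of the genes drawn, Sgca and Dag1 have the highest means and Sntb1 and Dtnb the lowest in both genotypes.

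A ratio of 2 genes within a sample does not change with the sample's scaling factor, so each member was also set against Dmd in the same sample. Utrn stood at 0.407, 0.570 and 0.386 of the Dmd level per kilobase in WT, against 0.647, 0.533 and 0.694 in Dock3 KO. Dock3 KO replicate 2 lay below WT replicate 3, and the other Dock3 KO samples lay above the WT range. The ratio was 0.454 ± 0.10 (WT) and 0.625 ± 0.0828 (Dock3 KO; SD, n = 3 each), and these differed by 0.47 on the log2 scale. A two-sided exact permutation test gave p = 0.2 (0.933 adjusted over 7 ratios), and 3 against 3 samples cannot give a p below 0.1.

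The log2 differences of the other 6 ratios to Dmd lay between -0.06 for Sgca and 0.23 for Dag1. Their exact permutation p-values were from 0.3 to 1, and none had groups that did not overlap. In Dock3 KO replicate 1, where Dmd was lowest, all of these ratios were at their highest, for example 6.57 for Sgca and 1.14 for Dtna. The differences for Sgcd, Sspn and Dtna turned below 0 without that sample, to -0.14, -0.12 and -0.11.

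**Figure D4:**
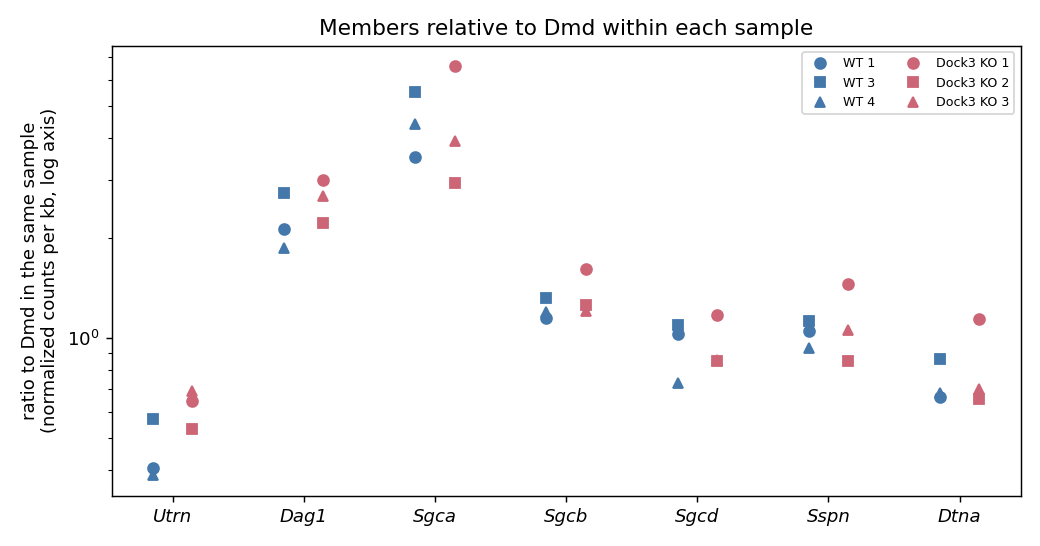
Level of each member per kilobase divided by that of Dmd in the same sample (vertical log axis), for 3 WT (blue) and 3 Dock3 KO (red) samples. The genotypes overlap for all 7 genes, and Dock3 KO replicate 1 (red circle) is highest for all except Utrn.

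Long transcripts as a class differed between the samples, and Dmd and Utrn belong to that class. The median log2 deviation from the mean of the 6 samples was taken over 853 coding genes with transcripts of at least 8000 bases, and that of 3157 coding genes under 2000 bases was subtracted. The result was 0.22, -0.13 and -0.23 in WT replicates 1, 3 and 4 and -0.26, 0.19 and 0.15 in Dock3 KO replicates 1, 2 and 3. Dock3 KO replicate 1 had the lowest value and the lowest Dmd and Utrn. WT replicate 4, with nearly as low a value, had a Dmd of 5905, among the highest, and a Utrn of 1894, the lowest in WT. The cause of these differences between samples was not tested. With the long-transcript measure as a covariate, the log2 difference was -0.29 for Dmd and 0.20 for Utrn, with adjusted p-values of 0.535 and 0.629 (limma), and 0 of the 8 genes passed.

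The genes whose values over the 6 samples were most like those of Dmd, among 9989 genes averaging 100 normalized counts or more, were Papss2 (Pearson's r 0.999), Appl2 (0.991) and Ift88 (0.991). With so many genes compared over 6 samples, values this high describe the top of a search. Papss2 had 223, 195 and 222 in WT, against 175, 222 and 202 in the knockout, with the lowest value in the sample where Dmd was lowest.

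Of 16 other subunits and partners of the complex, 14 were tested and none passed (limma adjusted p), with a median log2 difference of -0.00052. The smallest p belonged to Aqp4, a water channel of the fibre membrane. WT held 1042, 983 and 937 normalized counts, with 590, 750.3 and 688 in Dock3 KO. The groups did not overlap, and the log2 difference came to -0.55 ± 0.14 (standard error), at a limma adjusted p of 0.137. Sync, which encodes syncoilin, an intermediate filament protein that binds alpha-dystrobrevin, had a log2 difference of -0.44 (limma adjusted p 0.362), also without overlap. These were the only 2 of the 14 without overlap, which 16.2% of all genes tested also had. Cav3, the muscle caveolin, had a difference of -0.29 (limma adjusted p 0.590).

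The syntrophins are adaptors that carry the neuronal nitric oxide synthase encoded by Nos1. Sntb2 stood at 627 ± 39.0 in WT and 696 ± 98.3 in Dock3 KO, and Sntb1 at 59.9 ± 7.70 and 50.8 ± 19.9 (SD, n = 3 each). The log2 differences were 0.14 and -0.29 (limma adjusted p 0.819 and 0.836). Sntg1, a neuronal syntrophin, was under the minimum level for testing, at 6.62 to 10.1 in WT and 0 to 3.25 in Dock3 KO, and Sntg2 stood under 30 in every sample. Nos1 had means of 2932 ± 888 and 3092 ± 358 (SD, n = 3 each; log2 difference 0.11, limma adjusted p 0.913).

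Dystroglycan binds laminin only after a chain of sugars is built on it. Of 15 genes of this pathway, all were tested and none passed, with a median log2 difference of -0.08. The smallest p-values were those of B4gat1 (log2 difference -0.24), Pomt2 (-0.37) and Pomgnt2 (-0.33), 3 enzymes that build the chain, with adjusted p-values of 0.640, 0.722 and 0.741 (limma).

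The laminins and proteoglycans that dystroglycan binds were represented by 9 genes, of which none passed, with a median log2 difference of 0.04. Lamb1 (laminin beta-1) had a log2 difference of 0.44 and Hspg2 (perlecan) one of 0.35, with adjusted p-values of 0.365 and 0.437 (limma). Lama2, the laminin alpha chain of adult muscle and the main ligand of dystroglycan there, had 4023, 3163 and 4134 in WT, against 2946, 3441 and 3152 in the knockout (log2 difference -0.24, limma adjusted p 0.622).

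Integrin alpha-7 beta-1 is the other laminin receptor of the fibre. Among 11 genes of this linkage, a list chosen with earlier results of these data known, none passed, and the median log2 difference was -0.21. Of the 11, 6 had groups without overlap, a larger share than the 16.2% of all genes tested. An unadjusted limma p under 0.05 was found for 4 of the 11, against 10.5% of all genes tested. Itga7 had 938, 974 and 766 in WT, against 1125, 1273 and 1159 in the knockout, a log2 difference of 0.42 ± 0.14 (standard error). Itgb1, its beta subunit, had 5958, 5026 and 5740 in WT, against 4326, 4682 and 3689 in the knockout, a log2 difference of -0.40 ± 0.14 (standard error). The adjusted p-values were 0.292 and 0.297 (limma). For both genes the groups did not overlap, in opposite directions. Itgb1bp2, a muscle protein that binds the beta-1 integrin tail, had a difference of -0.45 (limma adjusted p 0.331).

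**Figure D5:**
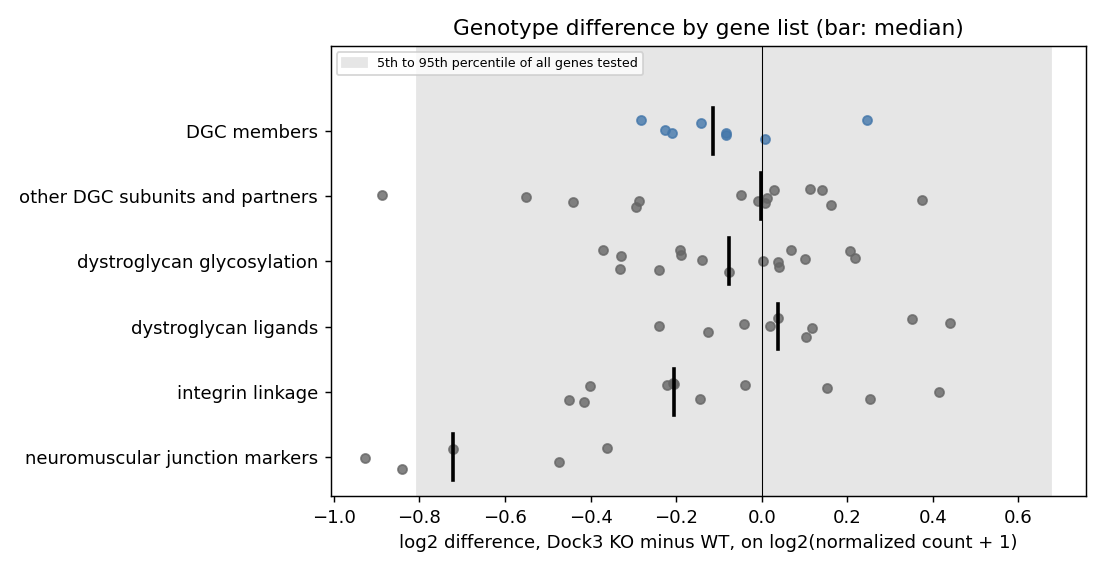
Log2 difference between genotypes (horizontal axis, Dock3 KO minus WT) of every tested gene of 6 lists, 1 point per gene, with the list's median as a black bar. The grey band runs from the 5th to the 95th percentile of all genes tested (-0.81 to 0.68) and holds all 8 complex genes, whose median is -0.11.

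Markers of other cells were examined because utrophin is also made at the synapse and in blood vessels. None of 5 neuromuscular junction markers, a list chosen with earlier results of these data known, passed. All 5, with a median of -0.72, had log2 differences below 0, against 51% of all genes tested. Their summed level was 855 to 1114 normalized counts in WT and 569 to 764 in Dock3 KO, and none was at 0. Chrna1, the acetylcholine receptor alpha subunit, had the smallest p (log2 difference -0.72, limma adjusted p 0.192). The part of these markers in the values of Utrn was not tested. Summed endothelial markers ranged from 3693 to 5003 in WT and from 3644 to 4488 in Dock3 KO, with 0 of 5 past the threshold.

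Summed smooth muscle and pericyte markers ranged from 8911 to 13107 in WT and from 12418 to 13013 in Dock3 KO, with 0 of 5 past the threshold. Rgs5 made up most of each sum, at 7517 to 11800 in WT and 10892 to 11611 in Dock3 KO. WT replicate 3 stood apart in Acta2, at 2371, against 487 and 564 in WT replicates 1 and 4 and 586 to 686 in Dock3 KO. Its Myh11 was 1266, against 349 and 386 in those WT samples and 392 to 547 in Dock3 KO. Summed Schwann cell markers lay between 1542 and 2090 in WT and between 1682 and 2001 in Dock3 KO. Summed macrophage markers lay between 2497 and 2810 in WT and between 2163 and 2371 in Dock3 KO, and summed adipocyte markers between 2113 and 3548 and between 2504 and 3347. Fabp4 made up most of each adipocyte sum, at 1717 to 3379 in WT and 2162 to 2633 in Dock3 KO. Other adipocyte markers varied more between samples. Adipoq ran from 29.5 to 184 in WT and from 29.8 to 178 in Dock3 KO, and Plin1 from 22.4 to 157 and from 82.7 to 177. Lep ran from 4.18 to 62.8 in WT and from 47.9 to 112 in Dock3 KO (log2 difference 2.26, limma adjusted p 0.324). None of the 15 genes of the Schwann cell, macrophage and adipocyte lists passed. Summed fibroblast markers overlapped, at 24557 to 27429 in WT against 25343 to 31074 in Dock3 KO. Of these markers 1 of 5 passed, Col1a1, a chain of collagen I, with a log2 difference of 1.38 (limma adjusted p 0.0228). The other 4 lay on both sides of 0, at 0.26 for Dpt, 0.15 for Pdgfra, -0.28 for Dcn and -0.48 for Lum.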

How the data were processed

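The authors deposited 1 table of normalized counts (a signal per gene, not whole numbers) for 3 WT and 3 Dock3 KO samples. Per the submitters' processing notes, Trim Galore 0.4.5, Salmon 0.12.0, DESeq2 1.22.1 and R 3.5.3 were used, with mm10 and GRCm38. Their roles, and the use of strand in counting, are not given in the sources used here. Ribosomal RNA was depleted and libraries were stranded, per the labels' protocols. All 54393 identifiers matched GENCODE M21 (GRCm38), the source of the gene positions and transcript sequences given.

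Of the low values of each sample, 22.9% to 35.0% were whole multiples (tolerance 0.02) of its commonest low value, so whole reads were not recovered and edgeR and DESeq2 were not run here. Precision rests on the replicates.

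Genes with a mean of at least 10 were compared as log2(normalized count + 1) with limma 3.58.1 in R 4.3.3 (eBayes with trend, no covariates), with Benjamini-Hochberg adjustment over 16031 genes and a threshold of 0.05. Such differences understate changes of low genes. On simulated data with 16031 genes, 58 of 100 changed by 1 log2 unit and 93 of 100 changed by 2 were called, and 18 unchanged genes. Ratios to Dmd were tested by exact permutation. The longest coding transcripts were searched for shared 31-base words, and their coding sequences for identical runs, in Python 3.11.15.

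Named were the 8 members, Dock3, the other subunits, the 3 genes most like Dmd, and the genes past the threshold or the 3 with the smallest p of each pathway list. Genes of the marker lists are given as sums, with single genes of the neuromuscular junction, smooth muscle, adipocyte and fibroblast lists. Of the marker genes, only Col1a1 passed. Nos1, Rgs5, Acta2, Myh11, Fabp4, Adipoq, Plin1 and Lep were named after their values were seen. Some genes of the complex and of its glycosylation pathway are not reported here, and the counts and medians of those lists leave them out. Members and lists were chosen with earlier results of these data known. Alternatives covered pseudocounts, filters, prior variance, scaling, covariates, a replicate block and left-out samples.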

Additional observations from a re-analysis of the deposited data

How the results depend on the processing

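No complex gene passed the threshold in any of the 21 alternatives, of which 20 were planned and 1, the long-transcript covariate, was chosen after seeing the data. The smallest adjusted p among them was 0.197, for Sgca (limma). Dmd, Sgca, Sgcb, Sgcd, Sspn and Dtna kept a difference below 0 throughout. Utrn turned to -0.029 with rescaling to the same total, which moved the median of all genes to -0.28. Dag1, at 0.0077, turned to -0.27 with that rescaling, to -0.10 with the same total without Gm42418 and Lars2 (all genes -0.11), to -0.089 with quantile normalization and to -0.033 with the long-transcript covariate. Over the fits that each left out 1 sample, Dag1 ranged from -0.061 to 0.12. The ratios to Dmd then ranged from 0.37 to 0.65 for Utrn, 0.11 to 0.39 for Dag1, -0.37 to 0.21 for Sgca, 0.01 to 0.22 for Sgcb, -0.16 to 0.13 for Sgcd, -0.12 to 0.26 for Sspn and -0.11 to 0.29 for Dtna.

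The count of 165 genes became 104 without a trend of the prior variance, 104 with protein-coding genes only (fewer genes tested), 57 with log2 Gm42418 as a covariate and 56 with Dock3 KO replicate 3 alone against WT, where the lone sample is assumed to vary like the others. It ranged from 100 to 159 over the fits that left out 1 sample, with its lowest values, 100 and 102, on leaving out WT replicate 4 or Dock3 KO replicate 2. The share called higher fell from 71 of 165 to 41 of 177 with rescaling to the same total, 52 of 163 with that total without Gm42418 and Lars2, 17 of 57 with the Gm42418 covariate, 34 of 104 without the trend, and 9 of 56 with Dock3 KO replicate 3 alone. For these moves the cause was not tested, except where the construction is stated. With the replicate block, 127 genes and 0 of the 8 complex genes passed, and Dag1 stood at -0.12. Same-numbered samples are not stated to share an animal. After subtracting group means they correlated at 0.065 and 0.0066, and so few values cannot show whether the numbers pair them. With 3 samples a group, the self-test called 58 of 100 changes of 1 log2 unit, in genes drawn from all levels. The 8 genes had a smaller median standard error, 0.15 against 0.23 over all genes tested. Differences as small as theirs were not simulated and may go undetected.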
